A study of Rattus norvegicus with 14 samples.

Results

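The genes described are chaperones and regulators that cells use when proteins misfold or amino acids run short, a list of 43 genes chosen by name. Of these, 40 were measured by a probe annotated to exactly 1 gene, out of 14506 genes in all, and a gene with several such probes is given by its brightest one on average. Edem1 and Sesn2 were not analysed here, nor was Hspa1b, which is annotated only on a probe listing several genes. The measured members comprise 13 endoplasmic reticulum (ER) chaperones, 3 genes of the unfolded protein response and of ER-associated degradation, 8 genes of the ATF4 arm, 13 cytosolic heat shock genes and 3 mitochondrial chaperones.

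Livers came from 14 lean female Zucker rats about 15 weeks old, all of genotype fa/+, that is with 1 mutant allele of the leptin receptor gene. The extract group (7 rats) ate standard diet with 0.05% by weight of a rosemary extract, 40% of which was carnosic acid, for 64 days. The control group (7 rats) ate the standard diet alone for the same time. The series title gives another dose than the sample labels, and that of the sample labels is printed. Each rat was measured on 1 array of total liver RNA, so values are averages over the cell types of the organ, in which fewer cells of a type and less RNA per cell cannot be told apart.

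Proteins that enter the ER are folded by chaperones such as BiP (Hspa5) and by disulfide isomerases. When unfolded proteins accumulate, the sensors IRE1, PERK and ATF6 raise the transcription of these helpers, in part through the transcription factors XBP1 and cleaved ATF6. PERK also phosphorylates the translation factor eIF2, as do kinases that respond to amino acid shortage, to viral RNA or to heme deficiency, and this favours the translation of ATF4, which is set largely at that step rather than by its transcript level. ATF4 turns on genes of amino acid synthesis and transport. In the cytosol the factor HSF1 raises heat shock proteins, and mitochondria have chaperones of their own. Carnosic acid is an electrophile precursor known as an activator of the antioxidant factor NRF2.

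Values are log2 RMA values, so a difference of 1 is a doubling, and a fold is the extract mean minus the control mean on that scale. A gene passed where limma's moderated test gave a Benjamini-Hochberg adjusted p under 0.05 over all 14506 genes. By that rule 457 genes passed (3.15%), 290 of them higher and 167 lower with the extract, and 2154 genes (14.8%) had an unadjusted p under 0.05. After centring of the arrays on their medians 74.2% of the called genes were higher, against 63.5% as deposited. The array weights that limma estimates were lowest for extract rat 4 (0.463) and control rat 1 (0.410), against 0.693 to 2.05 in the other rats. The 10 hepatocyte markers had mean values of 11.17 to 13.76, far above the 6.09 of the median gene in controls, and all 7 markers of pancreatic acinar cells, a cell type rich in ER chaperones, lay between 3.42 and 6.67. Among the pancreatic markers Cpa1 stood highest, at 6.14 ± 0.90 in extract rats and 6.67 ± 0.49 in control rats (SD, n = 7 each).

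Of the 40 chaperone, unfolded protein and ATF4 genes, 3 passed the test (7.5%), where 3.15% of all genes did. The members were chosen with earlier results of these data known, so this and later shares of members are not a test of them. Trib3 of the ATF4 arm and the mitochondrial chaperonin Hspd1 rose with the extract (2 members, where 2% of all genes rose), and the cytosolic Hspa4l fell (1 member, where 1.15% of all genes fell). An unadjusted p under 0.05 was found for 9 members, where 14.8% of all genes had one. Of these 9, 5 were higher and 4 lower, where 7.45% of all genes were higher and 7.4% lower at that level. In 0 of the 40 members did the values of the groups lie fully apart, which 1.54% of all genes showed. The median log2 fold of the members was 0.05, against -0.00088 over all genes, and the folds ran from -0.54 to 0.69. Without extract rat 4 and control rat 1, a choice made after the data had been seen, 2 members passed, Trib3 and Asns.

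**Figure D1:**
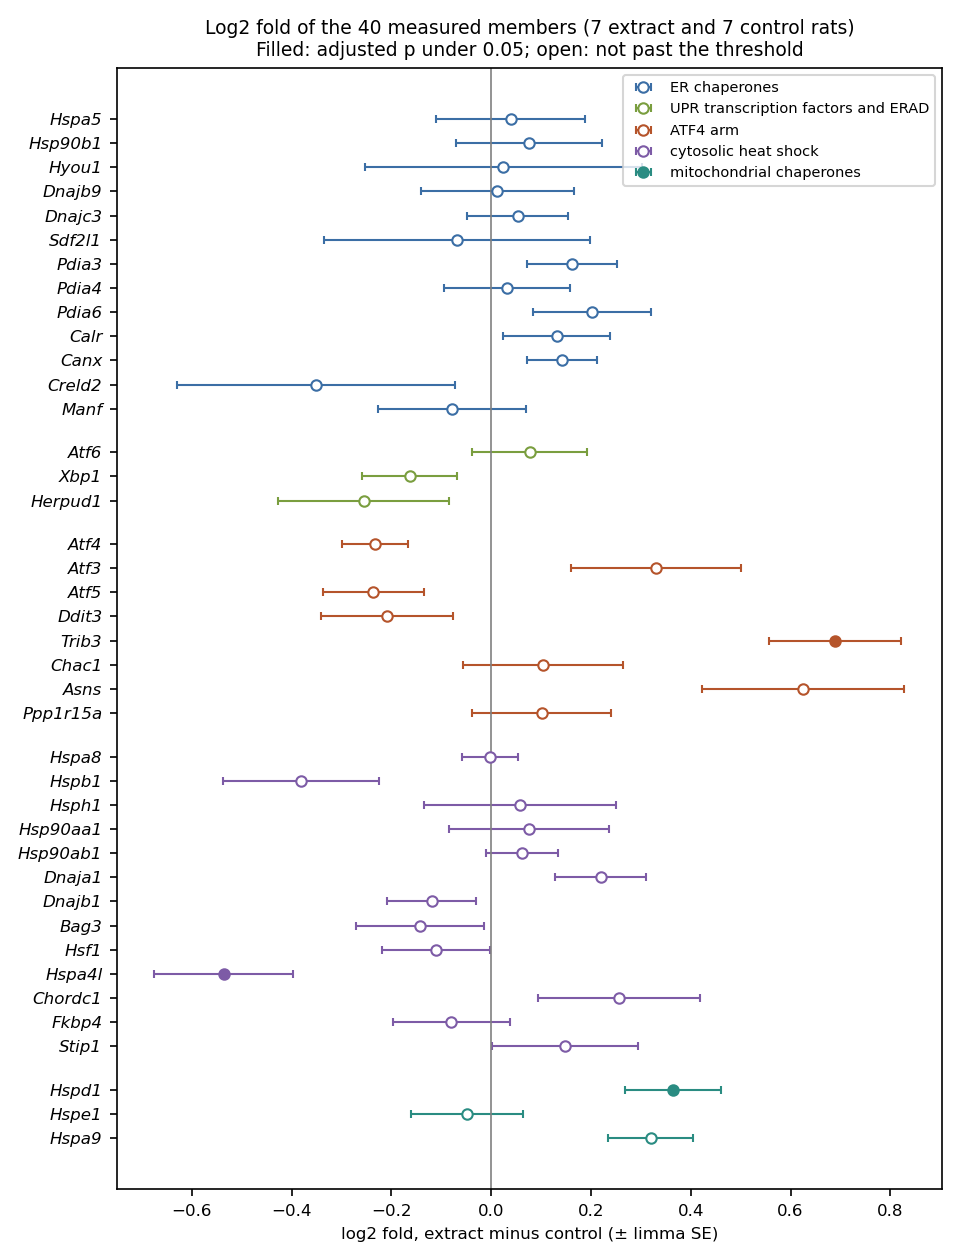
Log2 fold of each of the 40 measured members (extract minus control, horizontal axis) with limma's standard error, grouped from top to bottom into ER chaperones, unfolded protein response factors with ER-associated degradation (ERAD), the ATF4 arm, cytosolic heat shock genes and mitochondrial chaperones. Filled points passed the adjusted p threshold: Trib3 (0.69), Hspa4l (-0.54) and Hspd1 (0.36).

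Among ER chaperones limma called 0 of 13 genes, where 3.15% of all genes passed (0 also passed in a per-gene test with unequal variances). An unadjusted p under 0.05 was found for 0 of the 13, where 14.8% of all genes had one. Their median log2 fold was 0.04, with 10 positive and 3 negative values between -0.35 (Creld2) and 0.20 (Pdia6). Hspa5, the HSP70 of the ER lumen, had a lowest, median and highest value of 12.44, 12.52 and 12.92 in extract rats, against 11.77, 12.60 and 13.07 in control rats. The groups overlapped throughout, and the log2 fold was 0.04 ± 0.15 (SE, adjusted p = 0.947), with a 95% interval of -0.28 to 0.35. Hsp90b1, the HSP90 of the ER, had 11.75, 12.04 and 12.47 in extract rats and 11.25, 11.97 and 12.43 in control rats, a log2 fold of 0.08 (95% interval -0.23 to 0.38).

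The lectin chaperones and their partner isomerase, which fold glycoproteins, leaned to higher values without passing. Canx (calnexin) had a log2 fold of 0.14 (adjusted p = 0.369 in limma), and all 7 extract rats lay above the control median. Calr (calreticulin) had 0.13 and Pdia3, the isomerase that works with both, 0.16 (adjusted p = 0.645 and 0.434). In Calr 4 of 7 extract rats lay above the control median. With 1 rat left out at a time, the log2 fold ran from 0.06 to 0.18 in Calr and from 0.10 to 0.20 in Pdia3. In Canx it ran from 0.09 to 0.16. The lowest values were those without control rat 1 (Calr and Pdia3) or extract rat 7 (Canx), and the highest those without control rat 2. The other disulfide isomerases had log2 folds of 0.20 (Pdia6) and 0.03 (Pdia4). Dnajb9, Dnajc3 and Sdf2l1, cochaperones of BiP, had 0.01, 0.05 and -0.07. Hyou1, an exchange factor for BiP, had 0.02 and the ER stress-inducible secreted protein Manf -0.08. For Creld2 the interval was wide, -0.94 to 0.23.

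Several ER chaperones spread widely between rats of the same group. The median SD of the 13 genes was 0.22 in extract and 0.33 in control rats, against medians over all genes of 0.156 in extract and 0.163 in control rats. Canx was among the exceptions, with an SD of 0.140 in extract and 0.0931 in control rats. The widest ranges were those of Hyou1, Sdf2l1 and Creld2. Hyou1 lay between 9.17 and 10.46 in extract rats, a 2.45-fold range, and between 8.28 and 10.57 in control rats, a 4.90-fold range. Creld2 spanned 2.45-fold in extract rats and 3.59-fold in control rats, and Sdf2l1 2.64-fold in extract and 3.34-fold in control rats. The same rats often held the ends: extract rat 1 was lowest in 10 of the 13 genes and extract rat 7 highest in 10, while control rat 1 was lowest in 9 and control rat 2 highest in 11. Averaged over the 13 genes, the deviation from each gene's mean over all rats ran from -0.33 to 0.33 in extract rats and from -0.52 to 0.44 in control rats. The SD was smaller in extract than in control rats in 9 of the 13, as it was in 7891 of all 14506 genes, and the difference in spread was not tested. Control rat 1, low in 9 of the 13, was also the array of lowest weight.

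**Figure D2:**
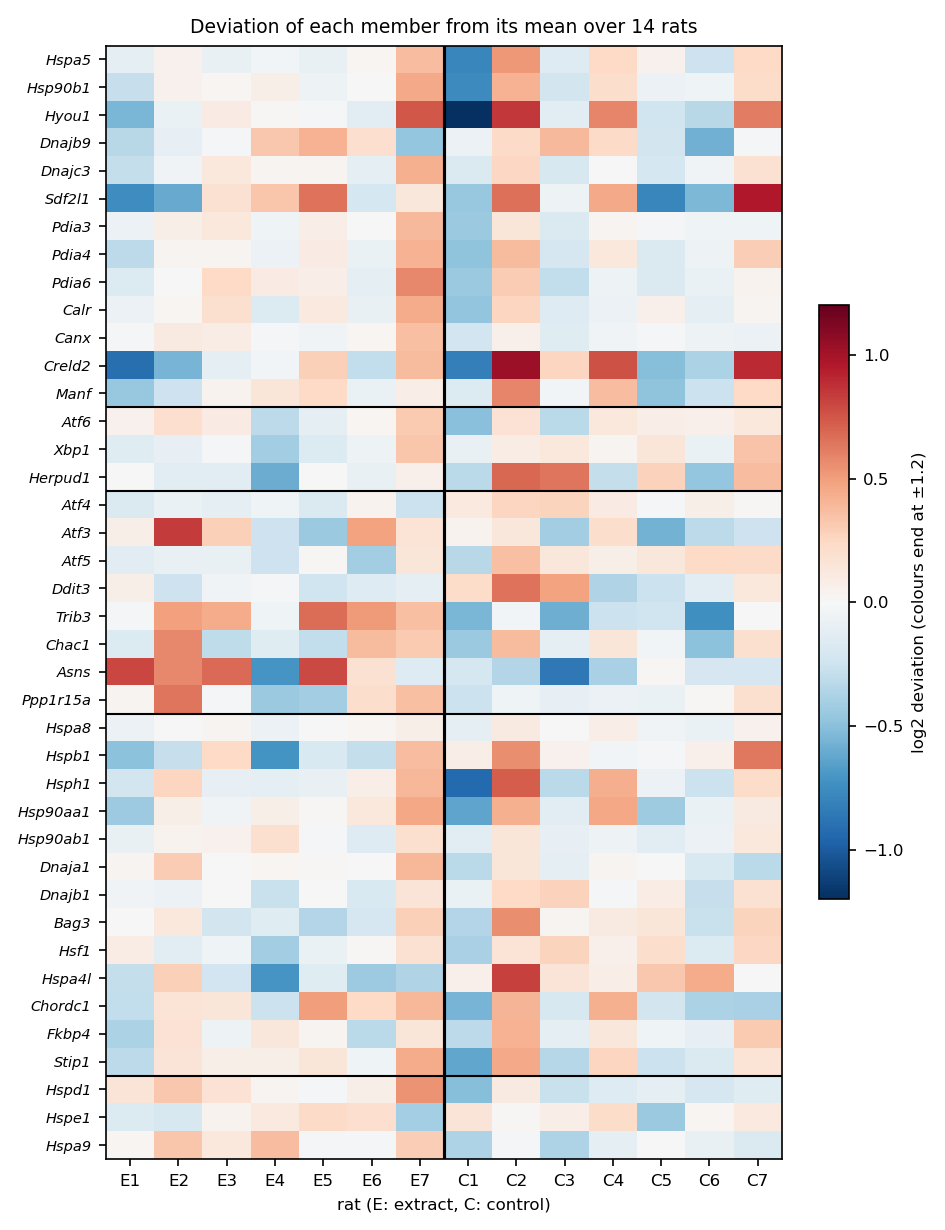
Deviation of each member (rows, in the order of the text) from its mean over the 14 rats, on the log2 scale, for extract rats E1 to E7 left of the line and control rats C1 to C7 right of it; horizontal lines part the 5 groups of members. In the top block control rat 1 is low and control rat 2 high across most ER chaperones, and extract rat 7 is high, while the blocks as a whole do not part at the vertical line.

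Many promoters of these chaperones carry the ER stress response element, the sequence that ATF6 binds together with the factor NF-Y, here searched on both strands as CCAAT, 9 bases of any kind and CCACG. The windows reach from 250 bases before to 50 bases after the gene start and come from RefSeq on the GRCr8 build, which held 33 of the 40 measured members. The element was in 7 of these 33, and in 0.0657% of all 33469 windows. The 8 matches are shown because most belong to ER chaperones; capitals mark the fixed letters and each is written along the strand on which it reads.
Hspa5: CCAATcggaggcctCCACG
Hsp90b1: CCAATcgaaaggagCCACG
Hsp90b1: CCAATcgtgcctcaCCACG
Creld2: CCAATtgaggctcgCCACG
Canx: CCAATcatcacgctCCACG
Xbp1: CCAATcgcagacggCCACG
Dnajc3: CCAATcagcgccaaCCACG
Calr: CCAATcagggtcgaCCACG
In the same order they lie at chr3:38452973-38452991 (plus strand, Hspa5), chr7:23012451-23012469 (minus strand, Hsp90b1), chr7:23012347-23012365 (plus strand, Hsp90b1), chr7:121789239-121789257 (minus strand, Creld2), chr10:35158069-35158087 (minus strand, Canx), chr14:84604558-84604576 (plus strand, Xbp1), chr15:102432534-102432552 (plus strand, Dnajc3), chr19:40213135-40213153 (minus strand, Calr). Of these genes 6 are ER chaperones and the 7th is Xbp1. Hyou1 and Herpud1 hold a second form of the element (ATTGG, 1 base of any kind and CCACG), which is in 0.0508% of all windows. The whole Hspa5 window (chr3:38452766-38453065, plus strand) follows, with its element in capitals, close to the gene start.
Hspa5: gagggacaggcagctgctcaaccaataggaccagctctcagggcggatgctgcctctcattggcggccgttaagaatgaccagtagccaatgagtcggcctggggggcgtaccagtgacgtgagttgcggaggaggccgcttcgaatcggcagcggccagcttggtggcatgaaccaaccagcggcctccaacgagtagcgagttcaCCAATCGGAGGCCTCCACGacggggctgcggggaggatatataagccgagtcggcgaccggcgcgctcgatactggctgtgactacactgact
A match is a stretch of letters and does not show that a factor was bound in these livers.

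Of the genes of the unfolded protein response and ER-associated degradation, limma called 0 of 3, where 3.15% of all genes passed. An unadjusted p under 0.05 was found for 0 of the 3, where 14.8% of all genes had one. In a per-gene test with unequal variances 0 passed. Xbp1, whose spliced form drives ER expansion, had 11.31, 11.62 and 12.05 in extract rats and 11.63, 11.81 and 12.06 in control rats (lowest, median and highest). Extract rats were thus below the control median in 6 of 7, with a log2 fold of -0.16 ± 0.10 (SE, adjusted p = 0.465). The array probe gives the summed transcript, and splicing of Xbp1 was not analysed here. Herpud1, a ubiquitin-like membrane protein of ER-associated degradation, had a log2 fold of -0.26 (adjusted p = 0.547), with all 7 extract rats below the control median, and Atf6 had 0.08. In Herpud1 the extract rats ran from 9.61 (rat 4) to 10.27, inside the control range of 9.74 to 10.89 in 6 of 7 rats.

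Folds in the ATF4 arm went in both directions. Of its 8 measured members 1 passed (Trib3), where 3.15% of all genes did, and 4 had an unadjusted p under 0.05 (2 higher and 2 lower), where 14.8% of all genes did. Trib3, a pseudokinase that ATF4 and CHOP induce and that restrains AKT signalling and ATF4 itself, had 5.44, 5.94 and 6.16 in extract rats, against 4.75, 5.23 and 5.49 in control rats (lowest, median and highest). All 7 extract rats lay above the control median and 5 above the highest control, and Trib3 rose 1.61-fold, with a log2 fold of 0.69 ± 0.13 (SE, adjusted p = 0.00595 in limma). Its control mean (5.15) lay below the median gene of controls (6.09), a range where RMA tends to compress folds. The call was held without each single rat (adjusted p from 0.00297 to 0.0172) and in the 8 other settings that kept the gene; both filters on dim genes removed it.

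Asns, the asparagine synthetase and a textbook ATF4 target, had 5.52, 6.80 and 7.03 in extract rats and 5.37, 6.01 and 6.24 in control rats. Extract rats 1, 2, 3, 5 and 6 were above every control, while extract rat 4 was near the bottom of the control range. The log2 fold was 0.63 ± 0.20 (SE, adjusted p = 0.119), and without extract rat 4 it was 0.79 with an adjusted p of 0.00889 in limma, so 1 rat decided this call. The adjusted p reached 0.236 without other single rats and ran from 0.00776 to 0.297 over 10 other settings. Chac1, a glutathione-degrading enzyme that ATF4 also induces, had 6.20, 6.36 and 7.08 in extract rats and 6.01, 6.47 and 6.88 in control rats. The groups overlapped, with 2 extract rats above every control, and the log2 fold was 0.10 ± 0.16 (SE, adjusted p = 0.845, 95% interval -0.23 to 0.44). Of the 3 named targets, then, Trib3 passed, Asns passed only without extract rat 4, with array weights or without both arrays of lowest weight, and Chac1 did not pass in any fit.

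Of the transcripts of the transcription factors, Atf4, Atf5 and Ddit3 had negative folds and Atf3 a positive one. In limma 0 of these 4 passed, where 3.15% of all genes did, and with unequal variances 0 passed. Atf4 and Atf5, 2 of them, had an unadjusted p under 0.05, where 14.8% of all genes had one. Atf4 had 9.91, 10.05 and 10.21 in extract rats and 10.15, 10.27 and 10.44 in control rats, so that 6 of 7 extract rats lay below every control. The log2 fold was -0.23 ± 0.07 (SE, adjusted p = 0.0685), and the adjusted p ran from 0.0248 (array weights) to 0.180 (median centring) over 10 other settings, of which 2 passed, and from 0.0466 to 0.151 without single rats, of which 1 passed. Atf5, a related factor translated under eIF2 phosphorylation, had 9.75, 10.07 and 10.31 in extract rats and 9.83, 10.30 and 10.52 in control rats (log2 fold -0.24, adjusted p = 0.270, and 0.0430 without control rat 1, the lowest control at 9.83, with up to 0.421 without other single rats). Ddit3, which encodes CHOP, had 7.02, 7.16 and 7.34 in extract rats, inside the range of control rats with 6.91, 7.40 and 7.91 (log2 fold -0.21 ± 0.13 SE, adjusted p = 0.515). Control rats 1, 2, 3 and 7 were above every extract rat in this gene. Atf3, a stress-inducible repressor, had a log2 fold of 0.33 (adjusted p = 0.390) and the eIF2 phosphatase subunit Ppp1r15a 0.10 (adjusted p = 0.821). In Ppp1r15a 3 extract rats lay above and 2 below all controls.

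**Figure D3:**
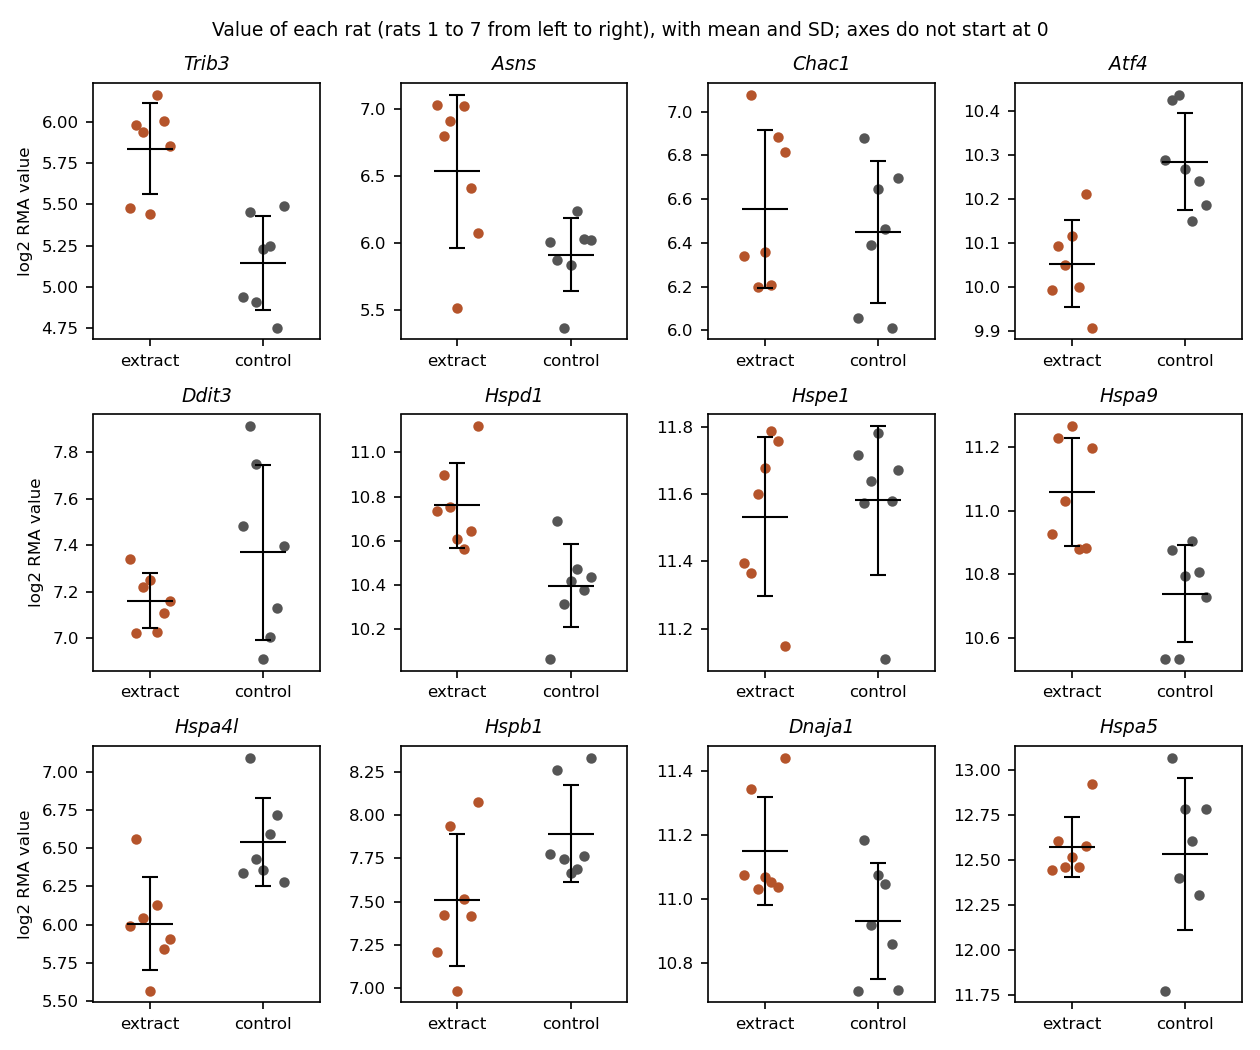
Log2 RMA value of every rat (points, rats 1 to 7 from left to right within a group) with group mean and SD for 12 members, extract left and control right in each panel; the vertical axes differ between panels. In Trib3 5 extract rats, and in Hspa9 5 and Hspd1 4, lie above all controls, whereas in Atf4 and Hspa4l 6 extract rats lie below all controls and Chac1, Hspe1 and Hspa5 overlap.

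A C/EBP-ATF response element, searched as TGATGNAA on both strands, was in the windows of 4 of the 33 members (Chac1, Trib3, Hspa9 and Herpud1), and in 3.98% of all windows. The window of Trib3 (chr3:161275484-161275783, minus strand), the member with the largest fold, is printed with that match in capitals; it reads on the opposite strand to the gene.
Trib3: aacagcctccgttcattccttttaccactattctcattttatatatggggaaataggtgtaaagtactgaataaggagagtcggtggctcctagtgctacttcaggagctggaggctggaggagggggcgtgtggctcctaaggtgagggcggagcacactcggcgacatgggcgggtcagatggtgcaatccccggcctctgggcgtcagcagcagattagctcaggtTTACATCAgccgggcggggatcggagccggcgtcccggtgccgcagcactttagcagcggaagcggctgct
The core of the antioxidant response element that NRF2 binds, TGACNNNGC, was in the windows of 5 of the 33 members and in 12.1% of all windows. Neither a match nor its absence shows whether a factor acted on a gene in these livers, which was not tested.

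Of other ATF4 targets, a further list of 21 genes, 5 passed (4 higher, 1 lower), where 3.15% of all genes did, and the median log2 fold was 0.11. In a per-gene test with unequal variances 3 of the 21 passed, where 227 of all 14506 genes did. At an unadjusted p under 0.05, 7 were higher and 2 lower, where 7.45% of all genes were higher and 7.4% lower. This list and the further lists below were chosen with earlier results of these data known, so these shares are not a test of them. Psat1 and Phgdh, enzymes of serine synthesis, rose. Psat1 had 8.14, 8.42 and 8.77 in extract rats, against 7.52, 7.82 and 8.04 in control rats, with no overlap and a log2 fold of 0.63 ± 0.10 (SE, adjusted p = 0.00153); averaged over all probes of the gene it was 0.40 (adjusted p = 0.0513). Phgdh had a log2 fold of 0.54 (adjusted p = 0.00709) at values below the median gene (means 5.21 in extract and 4.67 in control rats). Slc3a2, the heavy chain of several amino acid exchangers, rose by 0.45 (adjusted p = 0.0152 in limma, 0.0656 with unequal variances). Its light chain partner Slc7a11, the cystine carrier and also an NRF2 target, rose by 0.84 on the log2 scale at values near the bottom of the range (means 4.48 in extract and 3.64 in control rats, adjusted p = 0.048). That call was lost without 11 of the 14 rats taken singly (adjusted p up to 0.0927 in limma) and in the unequal-variance test (adjusted p = 0.241). Extract rats 3 and 5 had 5.44 and 5.47 in Slc7a11, against 3.80 to 4.38 in the other extract rats. The SD was 0.69 in extract and 0.098 in control rats. Nupr1, a stress-induced nuclear protein, fell, with 11.11, 11.43 and 11.57 in extract rats, below all control rats with 11.72, 11.81 and 12.31 (log2 fold -0.48, adjusted p = 0.00709).

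The mitochondrial chaperones had the highest median fold of the 5 groups, 0.32 over 3 genes, of which 1 passed, where 3.15% of all genes did. Hspd1, the chaperonin HSP60, had 10.56, 10.73 and 11.12 in extract rats, against 10.06, 10.42 and 10.69 in control rats. All 7 extract rats lay above the control median and 4 above every control, and it rose 1.29-fold (log2 fold 0.36 ± 0.10 SE, adjusted p = 0.048 in limma). Its other probe, dimmer with a mean of 7.08 over the 14 rats against 10.58, gave a log2 fold of 0.48 ± 0.10 (SE). With limma run over probes, the adjusted p was 0.0114 for that probe and 0.0496 for the probe used. Hspa9, the mitochondrial HSP70 called mortalin, had 10.88, 11.03 and 11.27 in extract rats, against 10.53, 10.79 and 10.91 in control rats, with 5 of 7 extract rats above every control. It missed the threshold by little (log2 fold 0.32 ± 0.09 SE, adjusted p = 0.0502). On the probes used, Hspd1 and Hspa9 both stood at the threshold. Leaving out 1 rat at a time, Hspd1 passed in 3 of 14 fits (adjusted p from 0.0268 to 0.110) and Hspa9 in 3 of 14 (0.0418 to 0.118), with positive folds in every one.

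Hspe1, the HSP10 lid of the HSP60 barrel, did not pass. It had 11.15, 11.60 and 11.79 in extract rats and 11.11, 11.64 and 11.78 in control rats, a log2 fold of -0.05 ± 0.11 (SE, adjusted p = 0.905, 95% interval -0.28 to 0.19). The interval of Hspd1, 0.16 to 0.57, overlaps it slightly, and the difference between the genes was not tested. The pair is of interest because the genes lie head to head: in RefSeq on GRCr8 their starts are 290 bases apart and the windows share 211 bases. In the windows of Hspd1 (chr9:64083988-64084287, minus strand) and Hspe1 (chr9:64084077-64084376, plus strand) capitals mark a pair of overlapping matches to the heat shock element, searched on both strands as GAA, TTC and GAA with 2 bases of any kind after each of the first units. They are the same bases of the genome, read from opposite sides.
Hspd1: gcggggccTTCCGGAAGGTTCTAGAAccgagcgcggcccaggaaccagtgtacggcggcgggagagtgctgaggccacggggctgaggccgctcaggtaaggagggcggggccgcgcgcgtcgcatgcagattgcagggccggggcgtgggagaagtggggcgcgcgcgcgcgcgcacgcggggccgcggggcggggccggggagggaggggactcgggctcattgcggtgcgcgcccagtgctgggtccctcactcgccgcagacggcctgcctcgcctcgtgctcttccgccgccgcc
Hspe1: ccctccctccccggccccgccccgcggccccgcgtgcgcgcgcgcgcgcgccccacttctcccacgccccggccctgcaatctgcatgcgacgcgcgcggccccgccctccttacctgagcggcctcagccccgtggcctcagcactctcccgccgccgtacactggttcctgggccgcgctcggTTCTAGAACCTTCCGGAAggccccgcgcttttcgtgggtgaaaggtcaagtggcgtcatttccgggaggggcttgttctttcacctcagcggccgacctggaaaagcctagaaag
The element was in 6 of the 33 members with a window (also in the cytosolic Chordc1, Dnaja1, Hspa8 and Hsph1), and in 0.798% of all windows.

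Among extract rats the partners went opposite ways. The pair was chosen with earlier results of these data known, and its p-values do not allow for that choice. Over the 7 extract rats Hspd1 and Hspe1 had a Pearson r of -0.93 (exact permutation p = 0.00198, adjusted p = 0.0179 over 18 correlations) and a Spearman rho of -0.93 (exact p = 0.00675, adjusted p = 0.0612). Without extract rats 5 and 7, the farthest from the Hspd1 median, r was -0.81. Over the 7 control rats r was -0.32 and rho -0.57 (exact permutation p = 0.355 and 0.200), and the difference between the groups was not tested. Extract rat 7 had the highest Hspd1 (11.12) and the lowest Hspe1 (11.15) of its group.

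**Figure D4:**
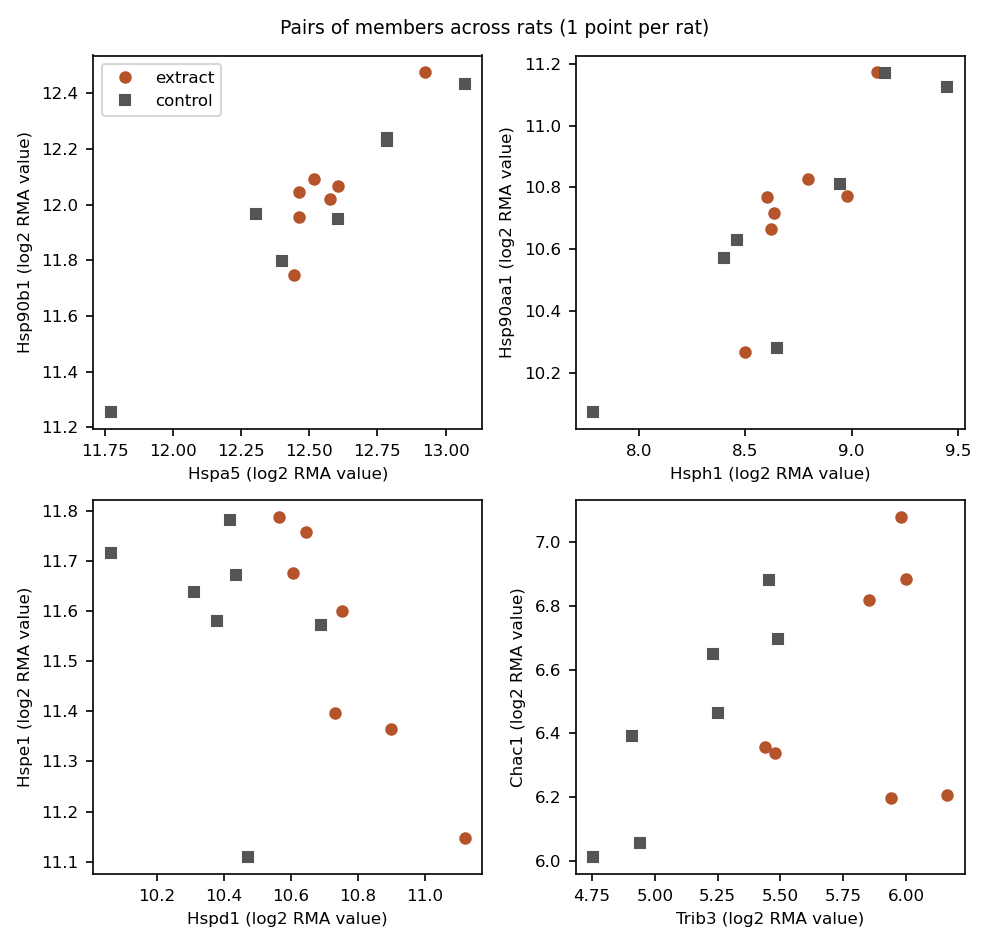
Values of 4 pairs of members in each rat (1 point per rat, both axes log2 RMA values; circles extract, squares control). Hspa5 rises with Hsp90b1 and Hsph1 with Hsp90aa1 in both groups, Hspe1 falls with Hspd1 among extract rats (r = -0.93), and Chac1 rises with Trib3 among control rats (r = 0.91).

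Of 10 further genes of mitochondrial protein quality control, 2 rose and 0 fell, where 3.15% of all genes passed, and 5 had an unadjusted p under 0.05, all 5 higher, where 7.45% of all genes were higher at that level. Afg3l2, a subunit of the protease of the inner membrane, had 7.78, 7.92 and 8.36 in extract rats and 7.25, 7.54 and 7.79 in control rats (log2 fold 0.43 ± 0.09 SE, adjusted p = 0.0135 in limma). In the unequal-variance test Afg3l2 had an adjusted p of 0.0508, and 1 of the 10 genes passed, where 227 of all 14506 did. Dnaja3, the HSP40 partner of mortalin, rose by 0.25 (adjusted p = 0.0475), a call held in 2 of the 14 fits without 1 rat.

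Of 13 measured cytosolic heat shock genes, 1 fell and 12 did not pass, where 3.15% of all genes passed, with a median log2 fold of -0.0030. Hspa4l, an exchange factor of the HSP110 family, had 5.57, 5.99 and 6.56 in extract rats and 6.28, 6.43 and 7.09 in control rats. In 6 of 7 extract rats it lay below every control, extract rat 2 being the exception, and it fell by 0.54 on the log2 scale (± 0.14 SE, adjusted p = 0.0423 in limma). Its extract mean (6.01) was just below the median gene, and the call was held in 4 of 14 fits without 1 rat (adjusted p from 0.0103 to 0.0885). Hsph1, another HSP110 of the cytosol, had a log2 fold of 0.06 ± 0.19 (SE), with 8.50, 8.63 and 9.12 in extract rats inside the control values of 7.78, 8.65 and 9.45.

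The abundant cytosolic chaperones showed close values in both groups. Hspa8, the constitutive HSP70, had 13.01, 13.08 and 13.16 in extract rats and 12.97, 13.09 and 13.19 in control rats, a log2 fold of -0.0030 ± 0.057 (SE, 95% interval -0.12 to 0.12). All 8 probes annotated to Hspa8 gave folds between -0.017 and 0.014. Hsp90aa1, the inducible HSP90, had 10.27, 10.77 and 11.17 in extract rats and 10.07, 10.63 and 11.17 in control rats (log2 fold 0.08 ± 0.16 SE), and the constitutive Hsp90ab1 had 0.06 (95% interval -0.09 to 0.21). Hsf1, the regulator of this group, had -0.11 (adjusted p = 0.714). Dnajb1 and Bag3, both HSF1 targets and cochaperones of HSP70, had -0.12 and -0.14, and the HSP90 cochaperones Stip1, Fkbp4 and Chordc1 had 0.15, -0.08 and 0.26, with adjusted p from 0.511 to 0.836.

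Hspb1 and Dnaja1 had unadjusted p-values under 0.05 without passing. The small heat shock protein Hspb1 had 6.99, 7.43 and 8.07 in extract rats, against 7.67, 7.76 and 8.33 in control rats, and 5 of 7 extract rats lay below every control (log2 fold -0.38 ± 0.16 SE, adjusted p = 0.243). Dnaja1, an HSP40 partner of Hspa8, had 11.03, 11.07 and 11.44 in extract rats, all above the control median, and 10.71, 10.92 and 11.18 in control rats (log2 fold 0.22 ± 0.09 SE, adjusted p = 0.251). Of 27 further cytosolic chaperones 1 rose, Ptges3, the HSP90 cochaperone p23, where 3.15% of all genes passed. It had 9.26, 9.51 and 9.57 in extract rats, above all control rats with 8.95, 9.10 and 9.21 (log2 fold 0.39 ± 0.07 SE, adjusted p = 0.00204), and was called in every fit run.

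Markers of macrophages had lower values in the extract group. All 8 had negative folds, as had 7291 of all 14506 genes. An unadjusted p under 0.05 was found for 7, all lower, where 7.4% of all genes were lower at that level. Past the threshold were 2 (Marco with -0.73 and Vsig4 with -0.51), where 1.15% of all genes fell. With unequal variances 1 of the 8 passed, and Vsig4 had an adjusted p of 0.0972. Their mean level per rat ran from 8.07 to 8.54 in extract rats and from 8.56 to 8.83 in control rats. Their part in the fall of Hspa4l or the lower values of Atf4 and Hspb1 was not tested. Of the endothelial and stellate markers 0 of 4 and 0 of 6 passed in limma, where 3.15% of all genes did. In a per-gene test with unequal variances 0 and 0 passed. An unadjusted p under 0.05 was found for 2 of the 4 and 2 of the 6, where 14.8% of all genes had one. All 4 endothelial markers had negative folds (median -0.22), as had 4 of the 6 stellate markers (median -0.17). The 4 measured bile duct markers had positive folds (median 0.19) at means of 4.11 to 5.75. In limma 0 of these 4 passed, and 1 had an unadjusted p under 0.05. The hepatocyte markers had a median log2 fold of -0.03, with 0 of 10 past the threshold in limma (0 with an unadjusted p under 0.05, and 0 with unequal variances).

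The further lists of unfolded protein response sensors, ER folding, ER-associated degradation and eIF2 enzymes held 1 call, where 3.15% of all genes passed. Of 5 sensors and processing enzymes of the unfolded protein response Mbtps2, the site-2 protease that releases ATF6 and also the sterol factors SREBP from membranes, rose. It had 7.37, 7.61 and 7.86 in extract rats, above all control rats with 7.11, 7.20 and 7.33 (log2 fold 0.41 ± 0.07 SE, adjusted p = 0.00389), and was called in every fit run. In ER folding and translocation limma called 0 of 14 genes (3 had an unadjusted p under 0.05, all higher, where 7.45% of all genes were), with Sil1, another exchange factor of BiP, first (log2 fold 0.25, adjusted p = 0.164). In ER-associated degradation it called 0 of 9 (0 with an unadjusted p under 0.05), with the ATPase Vcp first (0.23, adjusted p = 0.392). Among the eIF2 kinases, eIF2 alpha and the phosphatase subunit it called 0 of 5 (2 with an unadjusted p under 0.05, where 14.8% of all genes had one), with Ppp1r15b, the constitutive partner of Ppp1r15a, first (-0.31, adjusted p = 0.141). Testing each gene with unequal variances gave 0 calls in these 3 lists.

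**Figure D5:**
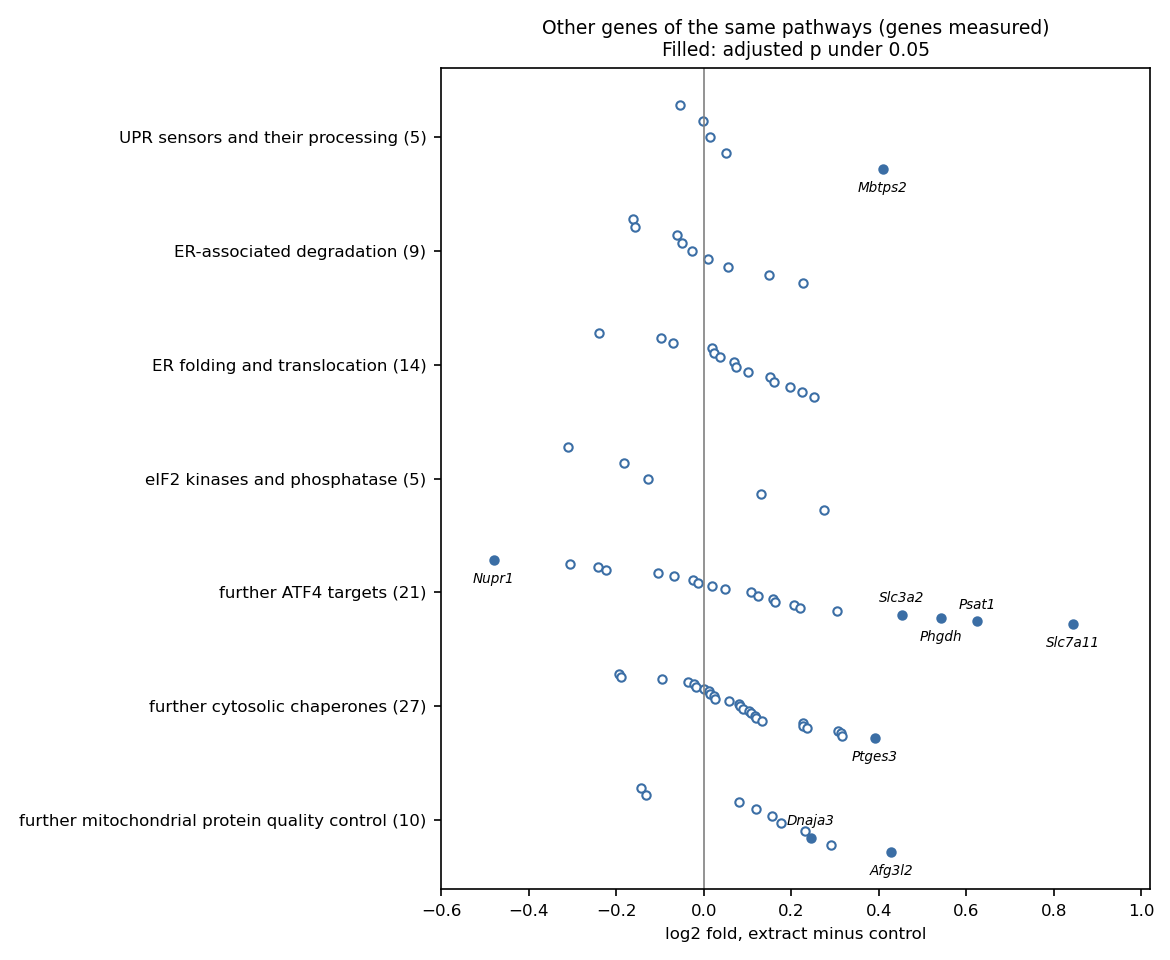
Log2 folds (extract minus control, horizontal axis) of the further genes of these pathways by list, with the number measured in brackets; filled and named points passed the adjusted p threshold. Named genes are Mbtps2, Nupr1, Slc3a2, Phgdh, Psat1, Slc7a11, Ptges3, Dnaja3 and Afg3l2, and the lists of ER folding, ER-associated degradation and eIF2 enzymes hold 0 filled points.

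Some pairs of members varied together inside a diet group, where the diet was the same for all rats. Correlations were computed for 9 pairs in each group, 18 in all, with an exact permutation test over all pairings of 7 rats. Of these, 8 passed a Benjamini-Hochberg adjusted p of 0.05 for Pearson's r and 0 for Spearman's rho. The 9 pairs were chosen with earlier results of these data known, and the p-values do not allow for that choice. Hspa5 and Hsp90b1 had r = 0.90 and rho = 0.82 in extract rats (exact p = 0.00853 and 0.0341) and r = 0.97 and rho = 0.86 in control rats (exact p = 0.00159 and 0.0238). Without the 2 rats farthest from the median of Hspa5, r was 0.55 in extract and 0.84 in control rats, so the relation in extract rats rests in part on rats 2 and 7. Hspa5 and Creld2 had r = 0.46 in extract rats, which did not pass, and 0.85 in control rats, which did. Without the same 2 rats r was 0.14 in extract and 0.70 in control rats. Hspa5 and Pdia4 had r = 0.80 in extract rats, which did not pass, and 0.92 in control rats, which did, with 0.081 in extract and 0.73 in control rats without 2 rats. In the cytosol Hsph1 and Hsp90aa1 had r = 0.83 in extract and 0.90 in control rats (exact p = 0.0107 and 0.00675), and 0.81 and 0.76 without 2 rats. Of the 13 cytosolic genes extract rat 7 was highest in 10 and control rat 1 lowest in 9, as among ER chaperones. The other ends were less alike, with extract rat 1 lowest in 6, extract rat 4 lowest in 4 and control rat 2 highest in 8 of the 13.

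In the ATF4 arm 1 of the 6 correlations computed passed. Trib3 and Asns had r = 0.46 in extract and 0.26 in control rats (exact permutation p = 0.277 and 0.632). Trib3 and Chac1 had r = 0.23 in extract rats (exact p = 0.575) and r = 0.91 and rho = 0.89 in control rats (exact p = 0.00774 and 0.0123), and 0.92 in controls without the 2 farthest rats. Extract rat 5 combined the highest Trib3 of its group (6.16) with a Chac1 of 6.21, near the group's lowest. Ddit3 and Atf3 had r = -0.24 in extract and 0.15 in control rats, and Hspa8 and Dnaja1 0.49 and 0.57, none past the threshold. Adjusted over the 18, the p of the 8 Pearson correlations that passed ran from 0.0179 to 0.0241 and the smallest of Spearman's was 0.0612.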

How the data were processed

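Liver RNA of each rat was labelled with biotin and read on a rat whole-transcript Affymetrix array, following the protocols in the labels. The authors deposited log2 expression values for 29215 probes. Their processing notes, as given to GEO by the submitters, name RMA and Affymetrix Expression Console 1.1.2; the options and the genome build are not given in the sources used here. Detection calls were not used. Gene names came from the platform annotation in GEO (15310 with 1 gene symbol, 323 with several, 13582 not listed), with symbols checked against NCBI's GRCr8 table.

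Groups and rat numbers come from the sample titles. All 14506 genes were compared with limma 3.58.1 (lmFit, eBayes, two-sided, no covariate) in R 4.3.3, with Benjamini-Hochberg adjustment at 0.05. Members of the list, the further lists, motifs and pairs were chosen with earlier results of these data known. All members are named; values by rat are given for members with an unadjusted p under 0.05 and for chosen members of each role, and of further lists the genes that passed or the first by p. The test was tested on simulated data. Correlations used exact permutation tests in Python 3.11.15. The number of arrays limits precision: the median standard error of a fold was 0.087.

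Calls were recomputed after a new quantile normalization, after centring on array medians, with either of 2 filters on dim genes and with the mean of all probes. They were also recomputed with limma's trend and robust options, array weights, unequal variances, rat number as a block, an adjusted p of 0.1 and without each rat. Medians of member groups were not recomputed with the trend and robust options, unequal variances or the adjusted p of 0.1. Correlations were recomputed only after quantile normalization, after median centring and with the mean of all probes. Besides the r without 2 rats, they were not recomputed without single rats. Leaving out both arrays of lowest weight was added after the data were seen.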

Additional observations from a re-analysis of the deposited data

Results flagged for a closer look

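In each group of 7 rats the highest and the lowest value of every member were compared with the rest (Dixon's criterion, 80 groups of values, of which chance flags about 1 in 20), and 6 values stood apart. Extract rat 7 was highest in 3 ER chaperones: 12.92 in Hspa5 (next rat 12.61), 12.99 in Pdia3 (next rat 12.73) and 12.23 in Canx (next rat 11.97). Extract rat 4 was lowest in Herpud1, at 9.61 (next rat 10.07). Control rat 1 was lowest in Atf5, at 9.83 (next rat 10.24), and control rat 5 in Hspe1, at 11.11 (next rat 11.57).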

How the results depend on the processing

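The number of genes called over the table was 457, and 694 with array weights, 227 in the unequal-variance test per gene, 719 at an adjusted p of 0.1, 364 with the rat number as a replicate block and 326 to 621 without 1 rat. Of the 40 members 3 passed, and 5 with array weights, 1 in the unequal-variance test (Trib3), 5 at an adjusted p of 0.1 and 1 to 3 without 1 rat; it was 1, Trib3, without extract rat 1, 3 or 7 or control rat 3 or 6. With the replicate block 2 members passed, Trib3 and Hspa4l, while Hspd1 had an adjusted p of 0.0545. The sample titles number the rats without stating a pairing. Same-numbered rats had correlations of deviations from -0.46 to 0.28, and 2 of 7 extract rats correlated best with their own number. These values cannot settle whether the numbers pair the rats. The median log2 fold of the ATF4 arm was 0.10, and -0.0538 under either filter on dim genes, which removes Trib3 and Atf3 and leaves 6 of its genes; without 1 rat it was 0.01 to 0.17. The median of ER chaperones was 0.04, from -0.05 to 0.13 without 1 rat, and -0.03 with array weights. The other 3 medians moved by less than the spread between rats. The 8 correlations called were the same 8 after quantile normalization, median centring and averaging of probes. In 956 recomputed adjusted p-values of members 914 kept their side of the threshold and 13 members, none of them called, changed the sign of the fold at least once. Hspd1 was also lost after quantile normalization (0.0766), without both arrays of lowest weight (0.0521) and in the unequal-variance test (0.115); Hspa4l was lost without both those arrays (0.0514) and in the unequal-variance test (0.136). The causes were not tested.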

Other observations

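The 8 subunits of the cytosolic chaperonin CCT, the ring that folds actin and tubulin, were looked at after the values of the further cytosolic list had been seen. All 8 had positive log2 folds, from 0.06 (Cct5) to 0.31 (Cct8), with a median of 0.11, where 7215 of all 14506 genes had a positive fold. Measured in the same 14 rats, the 8 subunits are not 8 independent results. limma called 0 of them, where 3.15% of all genes passed (0 also in a per-gene test with unequal variances). An unadjusted p under 0.05 was found for 3, all higher, where 7.45% of all genes were higher at that level. These were Cct6a, Cct2 and Cct8, with adjusted p-values of 0.0937, 0.0997 and 0.103 in limma. Cct6a averaged 9.52 ± 0.16 in extract rats and 9.21 ± 0.20 in control rats (SD, n = 7 each).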
